A study of Mus musculus with 212 samples.

Results

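The second day of a time course of mouse skin fibroblasts at 37 °C was compared with the first day of the same course, in wild-type and in Bmal1-/- cells. The comparison used 48 of the 212 RNA-seq libraries of the series, 24 per genotype, taken every 2 h at the labelled times CT00 to CT46. The 12 libraries labelled CT24 to CT46 made up the second day and the 12 labelled CT00 to CT22 the first, and each second-day library was paired with the library of its genotype labelled 24 h earlier. Both genotypes were mouse skin fibroblasts (MSF) of the C57BL/6 strain, grown to confluence in six-well plates and exposed to dexamethasone, a synthetic glucocorticoid that synchronises cellular clocks, at 100 nM for 15 min. They were then kept in HEPES-buffered medium with serum at 37 °C in constant darkness, and the first harvest came 48 h after dexamethasone. All 4 groups therefore shared the dexamethasone pulse, the medium and the plate format, and by their labels they differed in the Bmal1 genotype and in the time since the pulse. The design text gives n = 3 per time point and genotype. The sources used here do not give whether these cultures were pooled, how many cell preparations gave rise to the course, or which part of Bmal1 was deleted. Each library was 1 time point of 1 course, so the p-values below measure the spread between libraries of that course. Time since the pulse, time since the medium was added, time in culture and any difference in handling between the days cannot be told apart. The Bmal1 genotype cannot be told apart from the cell preparation that carried it, so genotype differences below are differences between these cells.

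BMAL1, encoded by Arntl, pairs with CLOCK on E-box elements and drives the Per, Cry and Nr1d genes, whose products feed back on the pair and on Arntl itself. Skin fibroblasts make and remodel the collagen-rich matrix of the dermis, and they also secrete growth factors and complement components and respond to interferon. Comparing the same clock label on successive days sets a 24 h rhythm aside. It leaves the change from one day to the next, be it drift of the culture or another difference between the days.

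Expression was given as FPKM, which scales the fragments of a gene by its length and by the size of the library, and changes are differences of log2(FPKM + 1) between paired labels, second day minus first, which understates the change of genes with few FPKM. A gene passed the test at an adjusted p under 0.05 (limma moderated test, Benjamini-Hochberg over the 12766 genes whose mean reached 1 FPKM), and it was called higher or lower when the change was also at least 1.5-fold. Estimated depth ran from 16.5 to 32.2 megareads (M) per library, with medians of 21.2 M and 26.3 M on the first and second day in wild type and 24.4 M and 25.5 M in Bmal1-/- cells. The 14 fibroblast marker genes were all expressed, with a summed level of 13000 to 20734 FPKM per library. Summed keratinocyte markers (10 genes, 2 of them tested) lay between 5.23 and 8.32 FPKM in wild type and between 2.56 and 4.27 in Bmal1-/- cells. Summed macrophage and leukocyte markers (9 genes, 3 tested) lay between 9.67 and 16.1 FPKM in all groups, and the 8 endothelial markers summed to at most 3.96 FPKM with Tie1 and Cldn5 at 0 in all 48 libraries. Summed adipocyte markers (8 genes, 3 tested) went from a median of 88.7 FPKM to 102 in wild type and from 172 to 204 in Bmal1-/- cells. Most of this was Lpl, at 46.6 to 192 FPKM, while Adipoq was at most 1.10 and Lep at most 0.0119 FPKM. Melanocyte and Schwann cell markers (9 genes, 2 tested) summed to 13.8 to 24.4 FPKM in wild type, with medians of 21.7 and 19.0 on the 2 days, and medians of 4.03 and 4.29 FPKM in Bmal1-/- cells. Muscle markers summed to at most 0.368 FPKM in wild type and 6.19 in Bmal1-/- cells, and cartilage and bone markers lay between 16.2 and 32.5 FPKM in all groups. The part of these markers in the results was not tested. In bulk samples, fewer cells of a type and less RNA per cell cannot be told apart.

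Arntl itself was measured at 3.88 to 8.39 FPKM in the first-day wild-type libraries (median 6.15) and at 3.59 to 8.21 on the second day (median 6.33). In Bmal1-/- libraries it was at 4.52 to 6.35 FPKM (median 5.38) and then 5.74 to 6.65 (median 6.13). The levels of the genotypes overlapped, and which part of the gene was deleted is not given, so the total Arntl level does not check the label. Nr1d1 (REV-ERBα), a target of BMAL1, reached 25.9 and 29.2 FPKM on the 2 days in wild type, against maxima of 5.42 and 5.02 FPKM in Bmal1-/- cells.

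On the first day, 5 Bmal1-/- libraries (CT08, CT16, CT18, CT20 and CT22) stood apart from the other 19 of their genotype. Along the first principal component, which held 20.4% of the variance, the highest of these 5 was at -14.3 and the lowest of the others at -4.67. The long nuclear RNA Malat1 was at 169 to 218 FPKM in these libraries and at 294 to 436 FPKM in the other 7 first-day libraries. The shift followed transcript length. In the 5 pairs that hold these libraries, the median day change was -0.23 log2 in the shortest of 4 length classes and 0.22 in the longest, whereas in the other 7 pairs the 4 classes lay between -0.02 and -0.01. The part of this length pattern in the Bmal1-/- results was not tested, and Bmal1-/- results are given with all 12 pairs and with the 7 pairs that remain without these libraries. That choice was made after the data were seen. In wild type, the libraries at CT32 and CT38 held a ribosomal RNA gene at 8708 and 14267 FPKM that was at 0 in the others, and without those pairs 38 genes were called higher and 72 lower. The wild-type library at CT24 was highest on the second principal component of its genotype, at 26.1, followed by CT30 at 15.6. Without the pair CT00 and CT24, 72 of the 96 genes called in wild type were called again. The part of this library in the results was not tested further.

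**Figure D1:**
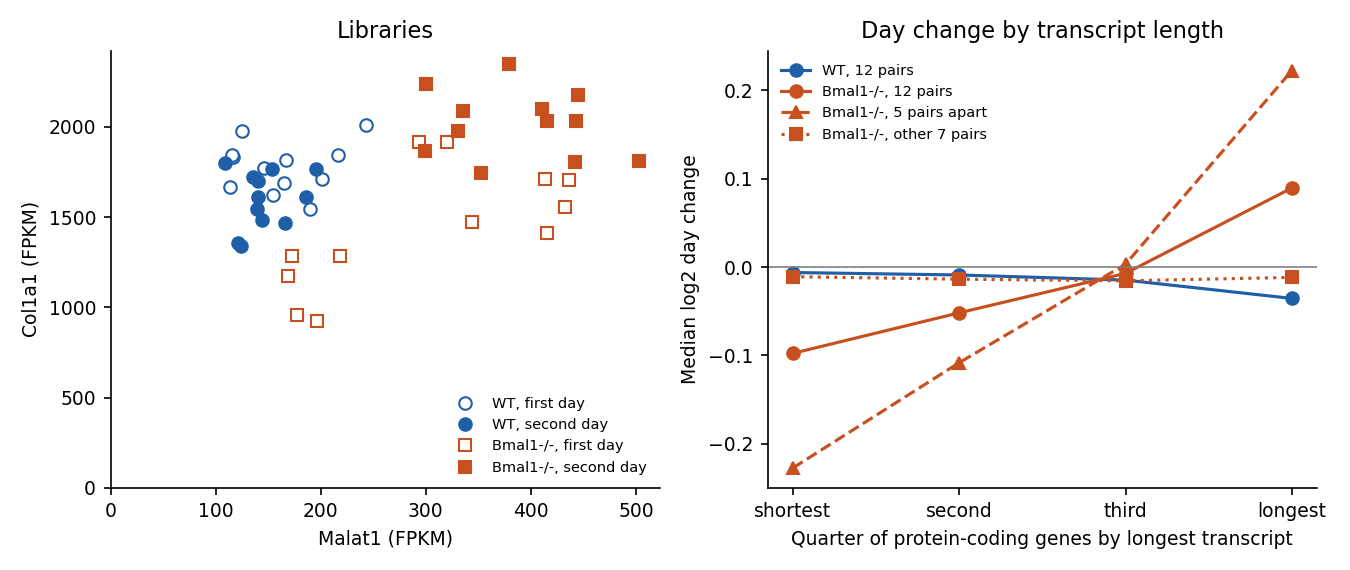
Left, Malat1 against Col1a1 in FPKM, 1 point per library, where the 5 first-day Bmal1-/- libraries that stood apart are the open squares at 169 to 218 FPKM of Malat1; right, median day change on the log2 scale of protein-coding genes in 4 classes of transcript length, for wild type, for all 12 Bmal1-/- pairs, for the 5 pairs that hold those libraries and for the other 7. The medians of the 5 pairs run from -0.23 to 0.22, while those of the 7 pairs stay between -0.02 and -0.01.

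Most transcripts were at similar levels on both days. In wild type, 37 genes (0.29% of those tested) were called higher on the second day and 59 (0.462%) lower. In cells lacking Bmal1, 38 genes (0.298%) were called higher and 23 (0.18%) lower, and with 7 pairs these counts were 21 and 22. With the adjusted p alone, 1009 genes (7.9%) rose and 1698 (13.3%) fell in wild type, and 1897 (14.9%) rose and 2759 (21.6%) fell in Bmal1-/- cells, counts that became 623 (4.88%) and 927 (7.26%) with 7 pairs. The median change over all genes tested was -0.01 in wild type and -0.02 in Bmal1-/- cells, and 98.8% and 99.2% of genes moved by less than 1.5-fold. Complete separation of the 12 first-day from the 12 second-day libraries was seen in wild type for 21 genes in the upward direction (0.164%) and 62 in the downward direction (0.486%), and in Bmal1-/- cells for 37 (0.29%) and 164 (1.28%).

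The day change itself differed between genotypes for 142 genes, with 89 (0.697%) more positive in Bmal1-/- cells and 53 (0.415%) more negative. With 7 Bmal1-/- pairs these counts were 71 and 35. All 142 genes kept their sign, 99 of them passed the test and 70 were called again. The libraries of that fit are among those that chose the 142 genes, so the shared sign is not a separate check. Of the 89 genes, 13 had a mean under 1 FPKM in Bmal1-/- cells and 4 in wild type, where a change could hardly be seen. With the adjusted p alone, the difference passed for 9.96% of genes in the positive and 9.53% in the negative direction, or 4.57% and 3.03% with 7 pairs. In both genotypes, 345 genes rose (2.7%) and 676 fell (5.3%), while 199 (1.56%) passed in opposite directions. With 7 pairs these counts were 206, 407 and 70. Across the 12766 genes the changes of the genotypes had a Pearson correlation of 0.21, or 0.26 with 7 pairs. Genes are not independent replicates, and the libraries of a genotype share their course, so this is a description only.

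**Figure D2:**
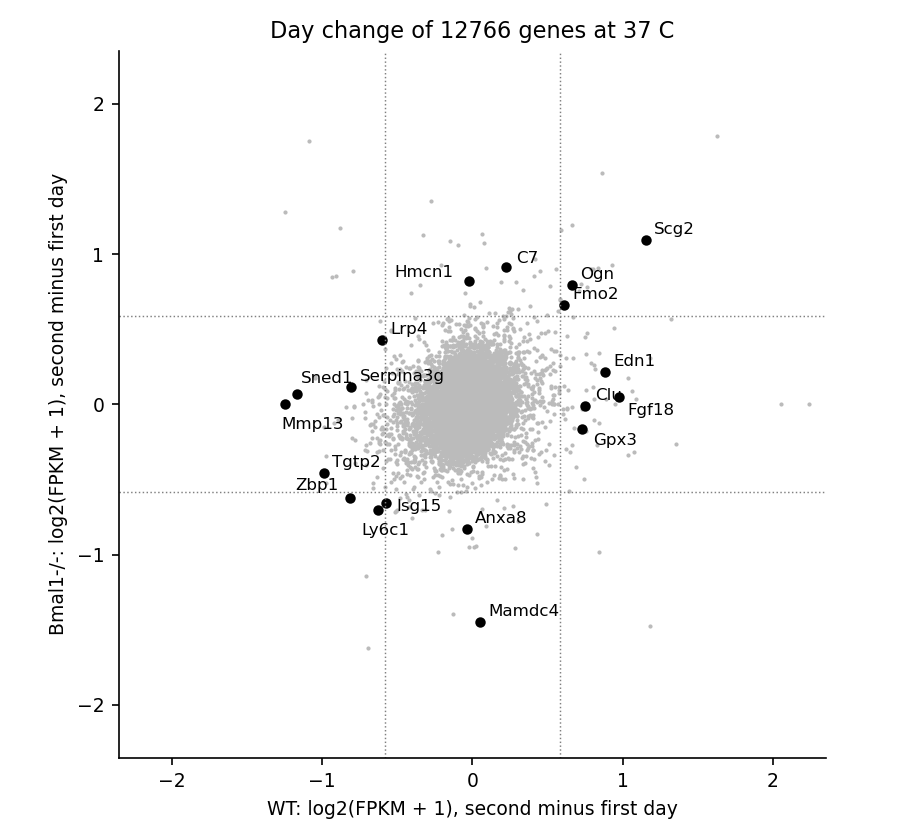
Day change on the log2(FPKM + 1) scale in Bmal1-/- cells against wild type, 1 point per gene (12766 genes), with dotted lines at 1.5-fold and selected genes labelled. Scg2 and Ogn lie in the upper right, Zbp1 and Ly6c1 in the lower left, and Mmp13 and Sned1 to the left at changes of 0.00 and 0.07 in Bmal1-/- cells.

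Few genes were called in both genotypes. At 1.5-fold, 8 genes (0.0627%) were called higher and 2 (0.0157%) lower in both. With 7 Bmal1-/- pairs the counts were 5 and 6. Scg2, Ogn, Omd and Fmo2 are among the 8, as are 3 predicted genes (Gm15079, Gm25820 and Gm37939), and the 2 called lower were Zbp1 and Ly6c1.

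Scg2 (secretogranin II, a precursor of secreted neuropeptides; chr1:79434669-79440120, GRCm38) was the most strongly increased gene in wild type by the naming rule. It was at 0.847 to 2.70 FPKM on the first day (median 1.66) and at 3.09 to 6.97 on the second (median 4.79) in wild type. The wild-type days did not overlap, and the change was 1.15 log2 (SE 0.051, adjusted p = 3.86e-14 by limma, higher in 12 of 12 pairs). Within the Bmal1-/- course, Scg2 went from 1.71 to 4.93 FPKM (median 2.80) to 4.58 to 13.1 (median 6.99), a change of 1.09 (SE 0.051, adjusted p = 4.74e-14, 12 of 12 pairs), or 1.03 with 7 pairs. Here the highest first-day library exceeded the lowest second-day library, so the Bmal1-/- days overlapped slightly. The difference between genotypes was -0.06 (adjusted p = 0.575). The rise ran through the course rather than in 1 step. Means over successive 12 h stretches were 1.29 ± 0.380, 2.15 ± 0.414, 4.23 ± 0.784 and 5.82 ± 0.929 FPKM in wild type (SD, n = 6 each), and 2.26 ± 0.389, 3.94 ± 0.811, 5.45 ± 0.627 and 10.4 ± 2.22 in Bmal1-/- cells.

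Ogn (osteoglycin, a small leucine-rich proteoglycan that binds collagen; chr13:49608046-49624501) was at 303 to 567 FPKM (median 388) on the first wild-type day and at 510 to 760 (median 679) on the second, with a small overlap. Its change was 0.66 log2 (SE 0.073, adjusted p = 2.72e-07 by limma, 12 of 12 pairs). In Bmal1-/- cells, where the level was lower, Ogn went from 60.8 to 95.9 FPKM (median 74.2) to 91.9 to 181 (median 134), again with a small overlap and a change of 0.80 (adjusted p = 2.98e-08), or 0.65 with 7 pairs. Omd (osteomodulin), a proteoglycan of the same family encoded beside Ogn at chr13:49582462-49592822, rose by 0.59 in wild type and 0.69 in Bmal1-/- cells (0.60 with 7 pairs). Fmo2, a flavin monooxygenase, rose by 0.61 and 0.66 (0.58 with 7 pairs). Each of these 3 genes was higher in at least 11 of 12 pairs of each genotype.

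**Figure D3:**
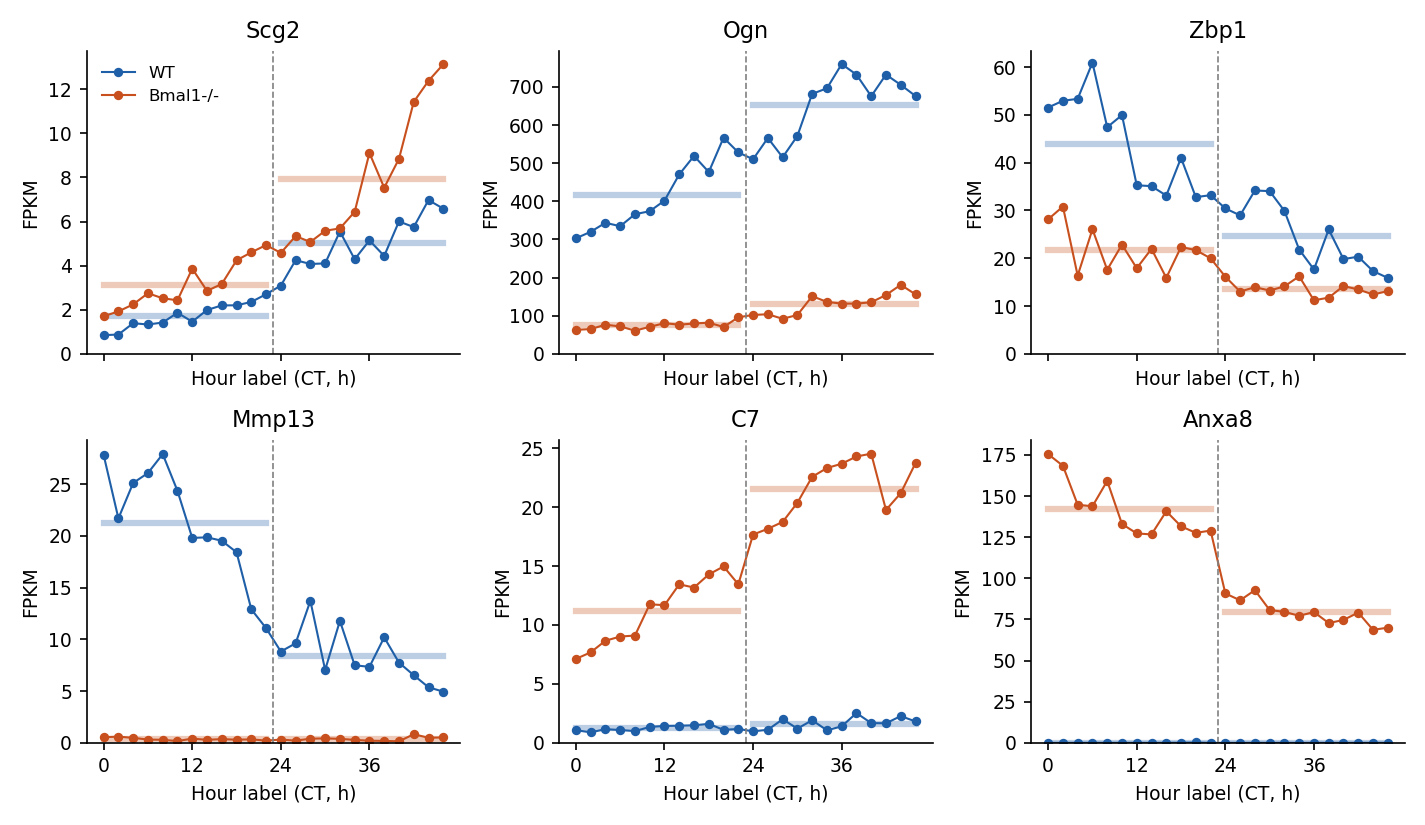
FPKM against labelled time (h) for Scg2, Ogn, Zbp1, Mmp13, C7 and Anxa8, 1 point per library, in wild type and Bmal1-/- cells, with thick pale lines at the mean of each day. Scg2 and Ogn climb and Zbp1 declines in both genotypes, Mmp13 falls in wild type from a first-day median of 20.8 to 7.62 FPKM, and C7 rises and Anxa8 falls in Bmal1-/- cells.

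Interferon-stimulated genes were lower on the second day in both genotypes. Type I interferon signals through JAK kinases to a transcription factor complex that contains IRF9 and binds interferon-stimulated response elements in the promoters of antiviral genes. Of the 22 genes of an interferon response list, 20 fell and 0 rose in wild type (median -0.49), and 16 fell and 0 rose in Bmal1-/- cells (median -0.31, or -0.40 with 7 pairs, again with 16 lower). Over all genes tested, 13.3% fell in wild type and 21.6% in Bmal1-/- cells, with medians of -0.01 and -0.02. The 2 wild-type exceptions, Ifit2 and Mx2, are named here because they did not pass. Averaged over the list, the level was lower on the second day in 12 of 12 pairs of each genotype: from a range of 5.33 to 5.93 log2 to 4.74 to 5.40 in wild type, and from 4.26 to 4.98 to 4.01 to 4.57 in Bmal1-/- cells. The ranges of the 2 days overlapped in both genotypes.

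Isg15, a ubiquitin-like protein that is conjugated to other proteins after interferon, was at 113 to 193 FPKM (median 145) on the first wild-type day and at 67.2 to 131 (median 99.6) on the second. It fell by 0.58 log2 (SE 0.090, adjusted p = 3.66e-05 by limma, lower in 12 of 12 pairs), although the highest second-day libraries exceeded the lowest first-day ones. In cells lacking Bmal1, it went from 57.2 to 116 FPKM (median 90.9) to 40.8 to 71.5 (median 54.2), a fall of 0.65 (adjusted p = 8.07e-06, 11 of 12 pairs), or 0.76 with 7 pairs. Its 12 h means were 170 ± 15.3, 126 ± 12.1, 113 ± 14.8 and 86.1 ± 15.6 FPKM in wild type (SD, n = 6), a decline that had begun within the first day.

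Bst2 (tetherin, which holds budding virions at the cell surface) was at 404 to 605 FPKM (median 510) and then 266 to 482 (median 381) in wild type, a change of -0.42 (adjusted p = 2.36e-06). Within the Bmal1-/- course, Bst2 went from 248 to 365 FPKM (median 320) to 162 to 243 (median 201), with no overlap of the days and a change of -0.64 (adjusted p = 1.08e-08), or -0.63 with 7 pairs. Oas1a, a sensor of double-stranded RNA, changed by -0.48 in wild type and -0.63 in Bmal1-/- cells (-0.61 with 7 pairs). Irf7, the transcription factor that amplifies the interferon loop, fell from a mean of 211 to 134 FPKM in wild type (-0.66) and from 27.4 to 18.4 in Bmal1-/- cells (-0.56, or -0.65 with 7 pairs). Ifi44 changed by -0.66 and -0.53 (-0.79 with 7 pairs).

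Zbp1, a sensor of Z-form nucleic acids that is induced by interferon and lies outside the list (chr2:173206612-173218923), fell in both genotypes. In wild type it was at 32.8 to 60.9 FPKM (median 44.2) on the first day and at 15.9 to 34.2 (median 23.9) on the second, with an overlap at the edge. The change was -0.82 (SE 0.071, adjusted p = 7.62e-09 by limma, lower in 12 of 12 pairs). In Bmal1-/- cells Zbp1 went from 15.9 to 30.8 FPKM (median 21.8) to 11.2 to 16.2 (median 13.4), a change of -0.63 (adjusted p = 5.56e-07, 12 of 12 pairs), or -0.72 with 7 pairs. Ly6c1, a surface protein of the Ly6 family, changed by -0.63 in wild type and -0.70 in Bmal1-/- cells (-0.68 with 7 pairs). The interferon-induced GTPases Tgtp2 and Tgtp1 changed by -0.99 and -0.97 in wild type and by -0.46 and -0.52 in Bmal1-/- cells (-0.60 and -0.69 with 7 pairs). The 2 GTPase genes are near-identical copies, so reads may be split between them and their separate values are uncertain.

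The promoters of 5 of these genes are shown because each holds the repeated GAAA core of the interferon-stimulated response element shortly before the start of transcription. The 160 bases before the start are taken from RefSeq (GRCm38.p6), written 5′ to 3′ on the strand of the gene, with matches to GAAANNGAAA on the strand shown in capitals and overlapping matches merged. They lie at chr4:156200819-156200978 (Isg15), chr8:71537473-71537632 (Bst2), chr5:120907526-120907685 (Oas1a), chr11:49064213-49064372 (Tgtp2) and chr11:48992247-48992406 (Tgtp1), all on the minus strand.
Isg15: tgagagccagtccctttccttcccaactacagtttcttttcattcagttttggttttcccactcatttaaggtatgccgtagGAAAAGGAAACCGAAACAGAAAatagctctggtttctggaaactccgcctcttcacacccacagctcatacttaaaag
Bst2: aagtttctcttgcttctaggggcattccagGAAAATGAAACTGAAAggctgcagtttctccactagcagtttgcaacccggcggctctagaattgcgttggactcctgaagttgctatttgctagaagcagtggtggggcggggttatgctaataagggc
Oas1a: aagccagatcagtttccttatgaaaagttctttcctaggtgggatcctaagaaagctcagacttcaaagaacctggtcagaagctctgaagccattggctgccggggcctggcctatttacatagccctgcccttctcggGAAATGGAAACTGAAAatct
Tgtp2: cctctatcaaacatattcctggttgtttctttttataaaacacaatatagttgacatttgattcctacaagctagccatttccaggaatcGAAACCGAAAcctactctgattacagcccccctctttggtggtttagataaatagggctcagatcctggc
Tgtp1: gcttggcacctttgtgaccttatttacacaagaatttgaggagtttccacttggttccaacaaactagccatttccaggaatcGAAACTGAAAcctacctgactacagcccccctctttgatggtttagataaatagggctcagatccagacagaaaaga
Isg15 held 3 overlapping matches between 78 and 57 bases before the start, Bst2 and Oas1a held 2 each, and Tgtp2 and Tgtp1 held 1 each. In the 250 bases before the start, searched on both strands, the motif was present in 9 of the 17 interferon list genes with a promoter in the table (52.9%). It was present in 10 of 41 genes called lower in wild type (24.4%) and 3 of 15 called lower in Bmal1-/- cells (20%). Among genes called higher it was present in 2 of 23 in wild type (8.7%) and 1 of 16 in Bmal1-/- cells (6.25%). The share was 3.24% over the genes tested (293 of 9037) and 3.46% over all promoters (936 of 27025). Genes called lower include members of the interferon list, so these shares overlap. A match is a description of the letters and not a bound site.

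**Figure D4:**
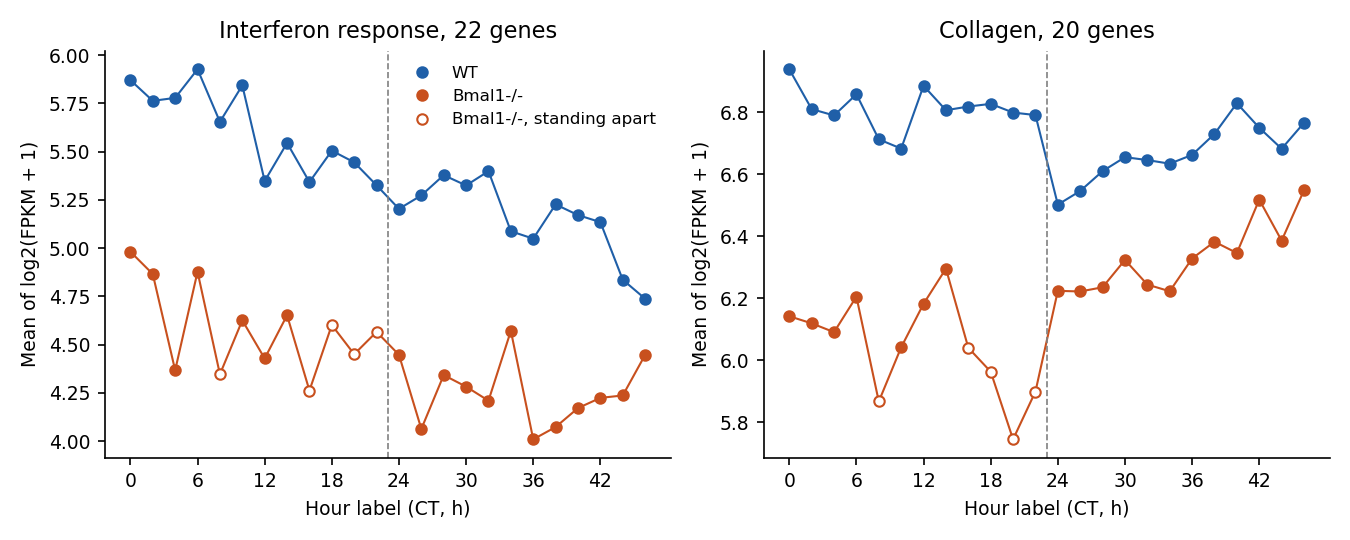
Mean log2(FPKM + 1) of the 22 interferon response genes and of the 20 collagen genes in each library against labelled time (h), in both genotypes, with hollow points for the 5 libraries that stood apart and a dashed line between the days. The interferon mean was lower on the second day in 12 of 12 pairs of each genotype, while the collagen mean was lower in 11 of 12 wild-type pairs and higher in 12 of 12 Bmal1-/- pairs.

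Apart from Scg2, the largest wild-type rise by the naming rule was that of Fgf18. Fgf18, a fibroblast growth factor with roles in cartilage and skin appendages (chr11:33117430-33147400), was at 1.45 to 3.37 FPKM (median 2.13) on the first day and at 3.00 to 7.80 (median 5.84) on the second, with a slight overlap. Its change was 0.98 log2 (SE 0.098, adjusted p = 6.99e-08 by limma, 12 of 12 pairs). Edn1, the precursor of the vasoconstrictor endothelin-1, went from 2.78 to 6.21 FPKM (median 5.11) to 7.09 to 11.8 (median 9.88) without overlap, a change of 0.88 (adjusted p = 8.52e-09). Fgf18 stayed under 1 FPKM in all Bmal1-/- libraries and Edn1 at or under 0.761, so a change there could hardly be seen on this scale. Edn1 lay at 0.144 to 0.523 FPKM on the first Bmal1-/- day and at 0.336 to 0.761 on the second.

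Fmod (fibromodulin, a collagen-binding proteoglycan that guides fibril assembly) went from 88.9 to 182 FPKM (median 128) to 188 to 256 (median 225) in wild type, with no overlap. It rose by 0.81 in wild type (adjusted p = 1.82e-10 by limma) and by 0.26 in Bmal1-/- cells, or 0.36 with 7 pairs, and the difference between genotypes was -0.55 (adjusted p = 4.12e-05). Gpx3, a secreted glutathione peroxidase, went from 746 to 1648 FPKM (median 1107) to 1571 to 2104 (median 1932) in wild type, a change of 0.73 (adjusted p = 4.48e-07) with overlap at the edge. In cells lacking Bmal1, Gpx3 was at medians of 118 and 109 FPKM (-0.16, adjusted p = 0.127, or 0.00 with 7 pairs), and the genotype difference was -0.89 (adjusted p = 1.1e-05). Clu, a secreted chaperone, rose by 0.75 in wild type and had a change of -0.01 in Bmal1-/- cells (0.23 with 7 pairs), a difference of -0.76. Ctla2a (0.94), Fgd3 (0.96), Kcne4 (0.84) and the matricellular protein gene Ccn1 (0.79) completed the 10 largest wild-type rises by the naming rule. Fgd3 was at or under 0.477 FPKM in every Bmal1-/- library.

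The increases did not all follow the same course within the 2 days. Gpx3 had 12 h means of 952 ± 141, 1335 ± 207, 1881 ± 197 and 1840.5 ± 161 FPKM (SD, n = 6), so its rise lay between the first and the third stretch. Clu continued to climb, from a mean of 19.3 FPKM in the first stretch to 48.3 in the fourth.

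The largest wild-type decreases by the naming rule were those of a collagenase and a matrix glycoprotein. Mmp13, the interstitial collagenase that cleaves fibrillar collagen (chr9:7272514-7283331), was at 11.1 to 27.9 FPKM (median 20.8) on the first day and at 4.94 to 13.7 (median 7.62) on the second. The days overlapped at the edge, and the change was -1.24 log2 (SE 0.077, adjusted p = 2.92e-11 by limma, lower in 12 of 12 pairs). Within the Bmal1-/- course, Mmp13 stayed at or under 0.830 FPKM in every library, so the genotype difference of 1.25 (adjusted p = 3.83e-08) rests on a gene that was near its detection limit in 1 genotype. Its 12 h means in wild type were 25.5 ± 2.34, 16.9 ± 3.90, 9.74 ± 2.57 and 7.02 ± 1.89 FPKM (SD, n = 6).

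Sned1, an extracellular matrix glycoprotein (chr1:93235841-93301065), was expressed at similar first-day levels in both genotypes, and its day change differed between them. In wild type it went from 17.2 to 33.1 FPKM (median 23.1) to 6.32 to 16.7 (median 9.99), with no overlap and a change of -1.17 (SE 0.120, adjusted p = 9.57e-08 by limma). In Bmal1-/- cells it was at 15.0 to 40.6 FPKM (median 31.3) and then 19.3 to 35.5 (median 29.3), a change of 0.07 (adjusted p = 0.685). The difference was 1.24 (adjusted p = 1.82e-05), or 1.04 with 7 pairs (adjusted p = 0.00118). The wild-type decrease was a step between the days, with 12 h means of 25.7 ± 4.53, 21.3 ± 4.70, 9.73 ± 2.66 and 10.3 ± 3.46 FPKM (SD, n = 6).

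Il1rn, the secreted antagonist of the interleukin-1 receptor, went from 34.4 to 76.6 FPKM (median 66.5) to 20.8 to 50.5 (median 26.3) in wild type, overlapping ranges with a change of -0.99 (adjusted p = 5.05e-07). In cells lacking Bmal1, its medians were 0.904 and 0.700 FPKM. Col15a1, a basement membrane collagen, changed by -0.84 in wild type and by -0.02 in Bmal1-/- cells, and the difference of 0.82 (adjusted p = 0.00341 by limma) no longer passed with 7 pairs (0.71, adjusted p = 0.0647). Serpina3g, a serine protease inhibitor, changed by -0.81 in wild type and 0.11 in Bmal1-/- cells, and its difference of 0.92 became 1.04 with 7 pairs. Enpep (-0.80), which encodes the aminopeptidase that cleaves angiotensin II, and Crygn (-0.90) were also among the 10 largest wild-type falls by the naming rule. Enpep was at or under 0.659 FPKM in every Bmal1-/- library.

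The changes of Lrp4 had opposite signs in the genotypes and passed in both. Lrp4, a receptor of the LDL receptor family that restrains Wnt signalling, went from 3.89 to 7.96 FPKM (median 5.21) to 2.30 to 4.01 (median 3.20) in wild type and from 5.52 to 8.75 (median 7.05) to 8.51 to 11 (median 9.47) in Bmal1-/- cells. The days overlapped slightly in both genotypes. The changes were -0.60 and 0.43, each in 12 of 12 pairs, with a difference of 1.03 (adjusted p = 2.88e-07 by limma), or 0.91 with 7 pairs (adjusted p = 7.16e-05). Apln, the precursor of the peptide apelin, fell by 0.71 in wild type and had a change of 0.16 in Bmal1-/- cells that did not pass (difference 0.87, or 0.99 with 7 pairs). Igf1, the insulin-like growth factor that fibroblasts secrete, went from 66.6 to 113 FPKM (median 92.5) to 49.0 to 67.2 (median 59.7) in wild type, with a slight overlap and a change of -0.62 (adjusted p = 4.98e-10). Within the Bmal1-/- course, its medians were 59.4 and 62.4 FPKM (0.07, adjusted p = 0.233, or 0.11 with 7 pairs). Its binding protein gene Igfbp3 rose in both, by 0.63 and 0.45, the latter 0.61 with 7 pairs.

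Among the largest rises in Bmal1-/- cells was that of a complement gene. C7, a component of the membrane attack complex (chr15:4988762-5063740), went from 7.12 to 15.0 FPKM (median 11.7) to 17.7 to 24.5 (median 21.9) without overlap, a change of 0.91 (SE 0.075, adjusted p = 6.43e-09 by limma, 12 of 12 pairs), or 1.02 with 7 pairs. In wild type C7 was at medians of 1.17 and 1.67 FPKM and changed by 0.22 (adjusted p = 0.0355), and the difference between genotypes was 0.69 (adjusted p = 7.59e-05).

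Pi15, a secreted protease inhibitor, rose by 0.86 in Bmal1-/- cells (0.67 with 7 pairs) and by 0.41 in wild type. Cemip, which is needed for hyaluronan breakdown in skin fibroblasts, rose by 0.70 (0.43 with 7 pairs) and by 0.58 in wild type. The change of Hmcn1 (hemicentin 1, a very long matrix transcript) was 0.82 with all pairs and 0.38 (adjusted p = 0.00502 by limma) with 7, and wild-type libraries held at most 0.314 FPKM. Zbed6 was at 0.82 with all pairs and at 0.46 (adjusted p = 0.206), no longer past the test, with 7. It lies within another gene, so its reads are uncertain.

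Among the decreases, Anxa8, an annexin that binds membranes in a calcium-dependent way (chr14:34085981-34100571), fell without overlap of the days. In cells lacking Bmal1, it was at 127 to 175 FPKM (median 137) on the first day and at 68.7 to 92.8 (median 79.3) on the second, with no overlap and a change of -0.83 (SE 0.031, adjusted p = 8.19e-16 by limma), or -0.80 with 7 pairs. Its level fell from 129 FPKM at CT22 to 90.8 at CT24, at the boundary between the days, and the 12 h means were 154 ± 16.3, 130 ± 5.32, 84.6 ± 6.39 and 74.1 ± 4.54 (SD, n = 6). Wild-type libraries held at most 0.229 FPKM of Anxa8. Ltc4s (leukotriene C4 synthase) changed by -0.71, or -0.56 with 7 pairs, and Slpi (secretory leukocyte protease inhibitor) by -0.71 in both fits, while in wild type Slpi changed by -0.51. Ctxn1 changed by -0.68 (-0.63 with 7 pairs). Mamdc4 changed by -1.45 (adjusted p = 0.00115), from 3.62 to 11.4 FPKM (median 7.55) to 0.318 to 7.43 (median 0.956), with wide overlap. With 7 pairs it was -1.13 (adjusted p = 0.102), and in the other courses of the genotype described below the fitted change was 0.36 in AM and PM and 0.03 at 32 °C, neither of which passed.

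Collagen genes moved in different directions in the genotypes. Of 20 collagen genes tested, 1 rose and 6 fell in wild type (median -0.15), against 7.9% and 13.3% of all genes tested. In Bmal1-/- cells 13 rose and 0 fell (median 0.34), against 14.9% and 21.6%. With 7 Bmal1-/- pairs, 10 rose and 0 fell, against 4.88% and 7.26%, and the median was 0.15. The genotype difference was positive and passed for 15 of 20 genes with all pairs, and for 9 with 7 pairs. Of all genes tested, 9.96% passed in that direction with all pairs and 4.57% with 7. Many collagen transcripts are long, and the estimate was smaller without the 5 libraries whose shift followed length.

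Col1a1, which encodes the main chain of type I collagen, was at 927 to 1919 FPKM (median 1444) on the first Bmal1-/- day and at 1745 to 2351 (median 2033) on the second. The 5 libraries that stood apart held 927 to 1287 FPKM. The change was 0.51 log2 with all pairs and 0.24 (adjusted p = 0.012 by limma) with 7, and it was positive in all of these pairs. In wild type Col1a1 was at 1545 to 2010 FPKM (median 1797) and then 1342 to 1799 (median 1614), a change of -0.16 that did not pass. Col12a1, a fibril-associated collagen, rose by 0.56 in Bmal1-/- cells (0.24 with 7 pairs), and Col4a2 of the basement membrane by 0.36 (0.11). Col8a1 rose in both genotypes, by 0.22 and 0.32 (0.19 with 7 pairs), and was the wild-type exception among the collagens. Averaged over the list, collagen expression changed by -0.14 log2 in wild type, lower in 11 of 12 pairs, and by 0.28 in Bmal1-/- cells, or 0.12 over 7 of 7 pairs.

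Other matrix and crosslinking genes rose more often than they fell in Bmal1-/- cells, with 23 of 33 higher and 2 lower (median 0.21), or 14 and 2 with 7 pairs (0.12). In wild type 12 rose and 7 fell (median 0.03). The shares of all genes tested that rose were 14.9%, 4.88% with 7 pairs, and 7.9% in wild type. Thbs1 (thrombospondin 1), a matricellular protein that activates TGF-beta, rose in both, by 0.50 and 0.60 (0.36 with 7 pairs). Of 21 matrix proteases and inhibitors, 4 rose and 10 fell in wild type, and 6 rose and 6 fell in Bmal1-/- cells (2 and 4 with 7 pairs). Over all genes, 7.9% rose and 13.3% fell in wild type, and 14.9% and 21.6% in Bmal1-/- cells. Adamts5, an aggrecanase, rose by 0.21 and 0.57 (0.49 with 7 pairs), and Timp3, an inhibitor of metalloproteinases, by 0.28 and 0.25 (0.15). Serpine2, a serine protease inhibitor, changed by -0.31 and -0.42 (-0.34).

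**Figure D5:**
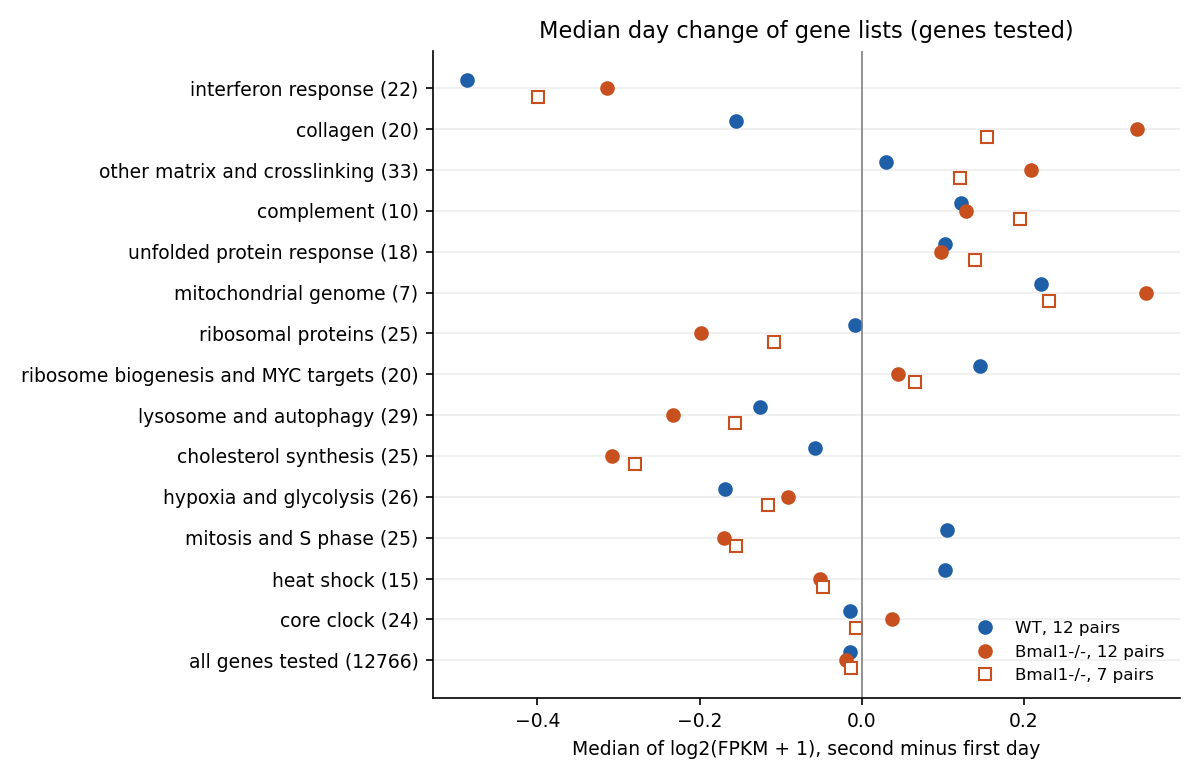
Median day change on the log2 scale for 14 gene lists and for all genes tested, in wild type, in Bmal1-/- cells with 12 pairs and in Bmal1-/- cells with 7 pairs. The interferon median lies lowest in wild type at -0.49, and the collagen median is at -0.15 in wild type, 0.34 with 12 Bmal1-/- pairs and 0.15 with 7.

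Genes of sterol synthesis were lower on the second day in Bmal1-/- cells. Of 25 genes of cholesterol synthesis and its control, 17 fell and 0 rose (median -0.31), and with 7 pairs 16 fell and 0 rose (median -0.28). The shares of all genes tested that fell were 21.6% and 7.26%. In wild type 2 fell and 2 rose (median -0.06), against 13.3% and 7.9% of all genes. The genotype difference was negative and passed for 10 of 25 genes, and for 7 with 7 pairs. Of all genes, 9.53% passed in that direction with all pairs and 3.03% with 7. Mvd, which makes isopentenyl diphosphate, changed by -0.53 in Bmal1-/- cells (-0.46 with 7 pairs) and -0.13 in wild type. Lss, the lanosterol synthase, changed by -0.43 (-0.44 with 7 pairs) and -0.22, of which the first passed. The desaturase gene Fads2 fell in both genotypes, by 0.44 in Bmal1-/- cells (0.42 with 7 pairs) and 0.25 in wild type.

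Lysosomal genes fell in both genotypes. Of 29 genes, 22 fell and 0 rose in Bmal1-/- cells (median -0.23; 15 and 0 with 7 pairs, median -0.16), and 15 fell and 1 rose in wild type (median -0.12). All genes tested fell at 21.6% in Bmal1-/- cells, 7.26% with 7 pairs and 13.3% in wild type. Gla, the alpha-galactosidase, fell by 0.36 in wild type and 0.49 in Bmal1-/- cells (0.45 with 7 pairs). Ctsa and Neu1, which form a complex in the lysosome, fell by 0.22 and 0.23 in wild type and by 0.40 and 0.36 in Bmal1-/- cells (0.36 and 0.28 with 7 pairs).

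Glycolytic and hypoxia-responsive genes were also lower, with 13 of 26 falling and 2 rising in wild type (median -0.17), and 12 falling and 1 rising in Bmal1-/- cells (median -0.09; 7 and 2 with 7 pairs), against 13.3%, 21.6% and 7.26% of all genes that fell. Slc16a3, the lactate exporter, fell by 0.38 and 0.35 (0.33 with 7 pairs), and Slc2a1, the basal glucose transporter, by 0.32 and 0.22 (0.19). Pfkl, the liver-type phosphofructokinase, fell by 0.31 and 0.23, and its Bmal1-/- change with 7 pairs was -0.16 and did not pass. Adm, the precursor of adrenomedullin, moved the other way in wild type, by 0.46. Of 13 mitochondrial genes on the list, 7 reached the mean of 1 FPKM needed for testing. Transcripts of the mitochondrial genome rose, 4 of 7 in wild type (median 0.22) and 7 of 7 in Bmal1-/- cells (median 0.35; 4 of 7 with 7 pairs, median 0.23), against 7.9%, 14.9% and 4.88% of all genes. Their share of all FPKM went from a median of 1.48% to 1.86% in wild type, higher in 11 of 12 pairs (adjusted p = 0.00859, exact sign-flip permutation test, two-sided, 8 tests in the family), and from 1.34% to 1.84% in Bmal1-/- cells (11 of 12 pairs, adjusted p = 0.00651 by the same exact test). With 7 pairs, that share was higher in 6 of 7 (exact p = 0.0781). mt-Nd6 changed by 0.25 and 0.62 (0.35 with 7 pairs), and mt-Nd2 by 0.38 and 0.43 (0.32). No test was made of what the mitochondrial share did to other genes' FPKM.

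Cell cycle genes differed in level, and 25 of the 30 on the list reached the mean of 1 FPKM needed for testing. Of 25 mitosis and S phase genes, 2 rose and 0 fell in wild type (median 0.11), and 1 rose and 13 fell in Bmal1-/- cells (median -0.17; 0 and 7 with 7 pairs). The genotype difference was negative and passed for 14 of 25, or 8 with 7 pairs, against 9.53% and 3.03% of all genes. The wild-type share that rose, 8%, was near the 7.9% of all genes, and the share of all genes that fell in Bmal1-/- cells was 21.6%, or 7.26% with 7 pairs. Kif20a, a mitotic kinesin, went from a mean of 1.69 to 1.21 FPKM in Bmal1-/- cells (-0.28, or -0.30 with 7 pairs). Top2a, the topoisomerase of dividing cells, went from 4.34 to 3.36 (-0.28, or -0.39), and the replicative helicase subunit gene Mcm2 from 16.6 to 13.0 (-0.32, or -0.40). In wild type their changes were 0.08, 0.11 and 0.03, and none passed.

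Targets of the mechanosensitive coactivator YAP and contractile genes rose in wild type, 8 of 15 against 2 that fell (median 0.13). Within the Bmal1-/- course, 2 rose and 6 fell (median -0.05), and with 7 pairs 0 rose and 1 fell. All genes rose at 7.9% and fell at 13.3% in wild type, and fell at 21.6% in Bmal1-/- cells, or 7.26% with 7 pairs. The genotype difference was negative and passed for 9 of 15 genes, or 5 with 7 pairs, against 9.53% and 3.03% of all genes. Ankrd1 rose by 0.53, Ccn2 by 0.51 and Amotl2 by 0.49 in wild type. Amotl2 also rose in Bmal1-/- cells, by 0.23 (0.20 with 7 pairs, not past the test), while Ankrd1 and Ccn2 had changes of 0.02 and 0.01.

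Ribosomal protein genes fell in Bmal1-/- cells, 18 of 25 (median -0.20), but 3 of 25 with 7 pairs (median -0.11). In wild type 2 fell and 1 rose. The shares of all genes that fell were 21.6%, 7.26% and 13.3% in the same order. These genes are short, and many have pseudogene copies that can share reads. Their share of all FPKM went from a median of 3.26% to 2.99% in Bmal1-/- cells. It was higher on the second day in 0 of 12 pairs (adjusted p = 0.00391, exact sign-flip permutation test, 8 tests in the family). With 7 pairs it was higher in 0 of 7 (exact p = 0.0156, the smallest that 7 pairs can give). In wild type it was higher in 3 of 12 pairs (adjusted p = 0.625 by the same exact test). Genes of ribosome biogenesis rose in wild type, 10 of 20 with 0 lower (median 0.15), and 6 rose and 1 fell in Bmal1-/- cells (2 and 0 with 7 pairs). Odc1, the first enzyme of polyamine synthesis, rose by 0.43 and 0.36 (0.51 with 7 pairs). Of 18 unfolded protein response genes, 5 rose and 0 fell in wild type and 10 rose and 1 fell in Bmal1-/- cells (9 and 0 with 7 pairs). For this and the preceding list, 7.9% of all genes rose in wild type and 14.9% in Bmal1-/- cells, or 4.88% with 7 pairs. Of these, the endoplasmic reticulum chaperone gene Hsp90b1 rose by 0.14 and 0.40 (0.33 with 7 pairs). Complement genes rose where they changed, 6 of 10 in wild type and 5 of 10 in Bmal1-/- cells (4 with 7 pairs). The shares of all genes that rose were 7.9%, 14.9% and 4.88% in the same order. C3 went from a mean of 1535 to 1818 FPKM in wild type (0.25) and from 1994 to 2701 in Bmal1-/- cells (0.44, or 0.42 with 7 pairs).

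Glucocorticoid-responsive genes were listed because dexamethasone preceded the course. Of 18 genes, 3 rose and 4 fell in wild type, and 3 rose and 8 fell in Bmal1-/- cells (2 and 4 with 7 pairs). The shares that rose and fell were 16.7% and 22.2% in wild type, against 7.9% and 13.3% of all genes, and 16.7% and 44.4% in Bmal1-/- cells, against 14.9% and 21.6%. Ddit4, an inhibitor of mTOR complex 1, fell by 0.71 and 0.40, and the metallothionein gene Mt1 by 0.41 and 0.42 (0.25 with 7 pairs). Sult1a1, a sulfotransferase, rose by 0.46 and 0.48 (0.66 with 7 pairs). With 7 pairs the Ddit4 change in Bmal1-/- cells was -0.29 and did not pass (adjusted p = 0.067 by limma).

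Core clock genes changed little between the days at matched labels. Of 24 tested, 1 rose and 2 fell in wild type (median -0.01), and 3 rose and 3 fell in Bmal1-/- cells (median 0.04), against 7.9% and 13.3% of all genes in wild type and 14.9% and 21.6% in Bmal1-/- cells. With 7 pairs 0 rose and 2 fell. Nr1d1 rose by 0.27 in wild type (adjusted p = 0.0026 by limma). Timeless, the vertebrate replication fork factor that carries the name of a fly clock gene, fell by 0.36. Bhlhe40, a repressor at E-boxes, fell by 0.23 in wild type and 0.22 in Bmal1-/- cells (0.29 with 7 pairs). Dbp, an output factor driven by BMAL1 and CLOCK, fell by 0.35 in Bmal1-/- cells, or 0.24 with 7 pairs. Clock rose by 0.35 in Bmal1-/- cells, and with 7 pairs its change was 0.12 (adjusted p = 0.16).

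The 24 h rhythm itself was compared between the days by fitting a cosine and a sine of 24 h to each day. For 0 of 12766 genes in either genotype did the rhythm differ between the days at an adjusted p under 0.05 by limma. At an unadjusted p under 0.05 the counts were 1185 (9.28%) in wild type and 2345 (18.4%) in Bmal1-/- cells, and the latter was 1241 (9.72%) without the 5 libraries that stood apart. In wild type the fitted amplitude of Nr1d1 was 0.79 log2 on the first day and 0.57 on the second, with peaks at 22.6 and 22.9 h. That of Dbp was 0.76 and 0.73, with peaks at 2.1 and 2.6 h, and that of Arntl 0.47 and 0.41, with peaks at 14.4 and 15.2 h. The amplitudes of Per2 (0.41 and 0.21), Per3 (0.55 and 0.36), Cry1 (0.37 and 0.26) and Nr1d2 (0.44 and 0.21) were also smaller on the second day, differences that did not pass the test. In Bmal1-/- cells the amplitudes were 0.07 and 0.10 for Nr1d1 and 0.08 and 0.02 for Dbp.

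The series holds further courses of both genotypes in which the same comparison can be made on separate libraries. Those used here were labelled AM and PM, sampled every 3 h (64 libraries used, up to CT45), and 32 °C (48 libraries). The AM and PM labels do not give a temperature. A course below 32 °C is also part of the series and was not compared here. Of the genes called higher in wild type at 37 °C, 29 of 37 had the same sign in the mean of AM and PM and 34 of 37 at 32 °C, and of those called lower, 55 of 58 and 52 of 58. In cells lacking Bmal1, the counts were 31 of 37 and 24 of 37 for genes called higher, and 22 of 23 and 16 of 23 for genes called lower. Among protein-coding genes alone they were 27 of 28 and 27 of 28 higher and 52 of 54 and 48 of 54 lower in wild type, and 24 of 24 and 20 of 23 higher and 15 of 16 and 13 of 16 lower in Bmal1-/- cells. Over all genes the changes had Pearson correlations, as a description across genes, of 0.37 with AM and PM and 0.41 with 32 °C in wild type, and of 0.43 and 0.12 in Bmal1-/- cells (0.45 and 0.12 with 7 pairs). Over protein-coding genes they were 0.54 and 0.54 in wild type, and 0.52 and 0.23 in Bmal1-/- cells (0.59 and 0.29 with 7 pairs).

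The interferon list was lower in those courses too. In wild type its median change was -0.43 in AM and PM, with 19 of 22 genes falling against 13% of all genes, and -0.43 at 32 °C, with 20 falling against 14.4%, and 1 rising. The Bmal1-/- medians were -0.25, with 9 falling against 3.63%, and -0.23, with 14 falling against 7.14%. Scg2 rose by 0.64 and 0.76 in wild type, and by 0.79 in AM and PM of Bmal1-/- cells. At 32 °C its Bmal1-/- change was 0.12 (adjusted p = 0.15 by limma). Of the cholesterol synthesis genes, 11 fell in AM and PM in wild type (median -0.15), against 13% of all genes, and 0 rose. In Bmal1-/- cells 6 fell there (median -0.12), against 3.63%, and 0 rose. At 32 °C 4 of them rose and 0 fell in wild type, against 14.1% and 14.4% of all genes. In Bmal1-/- cells 2 rose and 2 fell at 32 °C, against 7.91% and 7.14%.

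Some changes were not shared. The opposite directions of the collagen genes at 37 °C were not seen at 32 °C. There, 8 rose and 1 fell in wild type (median 0.07), against 14.1% and 14.4% of all genes. In Bmal1-/- cells 3 rose and 1 fell (median 0.08), against 7.91% and 7.14%. In AM and PM 1 rose and 3 fell in wild type (median -0.09), against 10.6% and 13%. In Bmal1-/- cells 3 rose and 0 fell (median 0.03), against 4.03% and 3.63%. The mitochondrial transcripts had a median change of 0.29 in AM and PM and -0.03 at 32 °C in wild type. In Bmal1-/- cells these medians were 0.03 and -0.15. The day change at 37 °C differed from that of AM and PM for 18 genes in the positive direction (0.137%) and 9 in the negative direction (0.0687%) of 13100 in wild type, and from that at 32 °C for 23 (0.177%) and 39 (0.3%) of 12996. Mmp13 changed by -0.19 in AM and PM and by 0.10 at 32 °C, against -1.24 at 37 °C. Both differences passed, at -1.05 and -1.34 (adjusted p = 7.92e-13 and 2.02e-12 by limma). In Bmal1-/- cells the counts were 19 (0.145%) and 3 (0.0229%) against AM and PM, which became 1 and 0 with 7 pairs, and 39 (0.3%) and 37 (0.285%) against 32 °C, which became 18 and 17.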

How the data were processed

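Poly(A) RNA was sequenced, and the authors deposited FPKM values per gene in 1 table for all 212 libraries, of which the 37 °C comparison used 48, with no read counts. Per the submitters' processing notes, GRCm38 was the genome build and the tools included Cuffdiff and TopHat2 2.1.0. The sources used here do not give filters or whether strand was used in counting. Depth was estimated from the FPKM steps of 1344 genes. Changes were fitted with limma 3.58.1 (R 4.3.3) on log2(FPKM + 1), for genes whose mean reached 1 FPKM, with 1 block per genotype and label modulo 24 h, a day term per genotype, and moderated two-sided tests adjusted by Benjamini-Hochberg. Both genotypes shared 1 estimate of the spread. On simulated data, 99% of 100 genes changed 1.5-fold and 99% of 100 changed 2-fold in wild type were recovered over 12766 genes, with 10 false calls. Both were counted by the adjusted p alone. The simulated noise was independent between libraries and the change a step on the second day. The simulation therefore checks the fit and does not cover gradual drift or libraries that stand apart. The blocks rest on the labels: libraries of a block share a clock label, not a culture. The pairs 24 h apart number 12 per genotype.

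The 39 gene lists and the members were chosen with earlier results of these data known. Named genes were the 10 largest rises and falls per genotype with that sign in at least 11 of 12 pairs, those called in both genotypes, the 6 largest genotype differences per direction, the 4 most changed members of each list, the core clock genes and the 5 largest differences from each other course; predicted genes, pseudogenes and small RNAs were not named, and some of these genes are not reported here. Of 47631 genes in the table, 47217 matched GENCODE vM21 (GRCm38), which gave coordinates and lengths; promoters are from RefSeq. Alternatives were the pseudocount, the filter, median-of-ratios scaling, a fit without blocks, linear time, the fold threshold and leaving out each pair, and, added after the data were seen, leaving out libraries that stood apart. Figures and tables used Python 3.11.15, pandas 2.3.3 and matplotlib 3.10.9.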

Additional observations from a re-analysis of the deposited data

Results flagged for a closer look

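The following day changes differed between groups of samples by a test of the difference itself (limma, adjusted p under 0.05), and are given as values on the log2 scale. Between Bmal1-/- and wild-type cells, the day change was more negative in Bmal1-/- cells for Fgf18 (-0.93), Fgd3 (-0.93), Ctla2a (-0.43), Edn1 (-0.67), Kcne4 (-0.50), Fmod (-0.55), Ccn1 (-0.51), Clu (-0.76) and Gpx3 (-0.89), all of which rose in wild type. It was also more negative for Mamdc4 (-1.50), Anxa8 (-0.79), Ltc4s (-0.56), Ctxn1 (-0.26) and Bst2 (-0.22), which fell in Bmal1-/- cells, and for Nr1d1 (-0.28), Rpl38 (-0.92) and Gadl1 (-0.91).

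The day change was more positive in Bmal1-/- cells for Mmp13 (1.25), Sned1 (1.24), Tgtp2 (0.53), Il1rn (0.84), Col15a1 (0.82), Serpina3g (0.92) and Enpep (0.71), which fell in wild type. The same held for C7 (0.69), Pi15 (0.44) and Hmcn1 (0.84), which rose in Bmal1-/- cells, and for Lrp4 (1.03), Apln (0.87), Clock (0.29) and Timeless (0.54). Fgf18, Fgd3, Edn1, Mmp13 and Enpep were under 1 FPKM in every Bmal1-/- library, and Hmcn1 and Anxa8 in every wild-type library. A change there could hardly be seen on this scale, so their differences do not show that it was absent. With the 7 Bmal1-/- pairs, the difference no longer passed for Ctla2a, Tgtp2, Col15a1, Pi15, Mamdc4 and Ltc4s, at adjusted p of 0.182, 0.258, 0.0647, 0.154, 0.224 and 0.0773 by limma. Nor did it for Ctxn1, Bst2, Rpl38, Gadl1, Clock and Nr1d1, at adjusted p of 0.212, 0.185, 0.125, 0.188, 0.685 and 0.0946 by limma. Reads of Rpl38 and of Tgtp2 may be shared with near-identical copies.

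Between courses of wild-type cells, the day change at 37 °C differed from that of the AM and PM courses for Mmp13 (-1.05), Rpl38 (0.87), Il33 (-0.72), Lyrm9 (0.71) and Smim27 (0.67). It differed from that at 32 °C for Mmp13 (-1.34), Mlana (-1.13), Saa3 (-1.13), Ccl9 (-0.90) and Angptl4 (0.87). In Bmal1-/- cells it differed from AM and PM for Mamdc4 (-1.81), Fam107b (0.79), Neat1 (0.77), Tnnt3 (0.75) and Meg3 (0.69), and from 32 °C for Mamdc4 (-1.48), Zbed6 (1.13), Scg2 (0.98), Ran (-0.90) and Tpt1 (-0.88). Without the 5 libraries that stood apart, the counts of such genes in Bmal1-/- cells were 1 and 0 against AM and PM and 18 and 17 against 32 °C, in the positive and the negative direction.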

How the results depend on the processing

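Counts are given as higher and lower, in the order wild type, Bmal1-/- and genotype difference. With a pseudocount of 0.1 FPKM they were 58 and 118, 105 and 47, and 206 and 82. With a mean of at least 5 FPKM they were 23 and 39, 23 and 12, and 56 and 36, among fewer genes tested. At 2-fold they were 4 and 3, 9 and 2, and 9 and 2, and with the adjusted p alone 1009 and 1698, 1897 and 2759, and 1271 and 1217. Linear time in place of the days gave 14 lower in Bmal1-/- cells. Without the 5 libraries that stood apart, 21 genes were higher in Bmal1-/- cells and the difference was lower for 35. Leaving out 1 pair in turn gave 24 to 39 and 52 to 68, 27 to 55 and 20 to 34, and 79 to 104 and 45 to 61. The lowest wild-type count, 24 higher, came without CT00 and CT24. The fit without the replicate block gave 36 and 59, 39 and 22, and 89 and 53, so the pairing moved no count by over 1.5 times. The change of rhythm passed for 1 gene in Bmal1-/- cells with the pseudocount of 0.1 and for 3 with no filter. Against AM and PM, the pseudocount of 0.1 gave 26 lower in wild type and 47 and 19 in Bmal1-/- cells, and the 7 pairs gave 1 and 0. Against 32 °C it gave 35 and 81, and 108 and 78, and the 7 pairs gave 18 and 17. Where a setting's own construction does not show the cause, the cause was not tested. Of 1795 values of 88 named changes under these settings, 0 reversed and 33 no longer had an adjusted p under 0.05. The 88 were called on the same libraries that these settings reuse, so the absence of reversals is not a separate check. Without the 5 libraries that stood apart, 42 values still passed and 10 did not. The 1.5-fold rule was not part of these counts, and more calls were lost where it was. Of the 61 genes called in Bmal1-/- cells, 24 were called again with 7 pairs and 38 with linear time. Of the 142 genotype differences, 70 and 94 were. There were no read counts, so sampling noise could not be modelled, and changes of genes near 1 FPKM depend on the pseudocount. Each day was 1 stretch of 1 course.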

Other observations

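Growth factor and chemokine genes beyond those already described also moved between the days. Of 18 genes of the IGF and growth factor list, 6 rose and 6 fell in wild type, and 9 rose and 2 fell in Bmal1-/- cells (5 and 0 with 7 pairs). Over all genes tested, 7.9% rose and 13.3% fell in wild type, and 14.9% and 21.6% in Bmal1-/- cells, or 4.88% and 7.26% with 7 pairs. Gas6, a ligand of the TAM receptors, rose from a mean of 430 to 615 FPKM in wild type (0.53) and from 383 to 442 in Bmal1-/- cells (0.23, or 0.42 with 7 pairs). Igfbp4, which binds IGF, fell by 0.47 in wild type and 0.23 in Bmal1-/- cells, and with 7 pairs its change was -0.07 and did not pass. Of 16 TGF-beta and BMP response genes, 5 rose and 7 fell in wild type and 2 rose and 6 fell in Bmal1-/- cells (1 and 4 with 7 pairs), where the 2 that rose, 12.5%, lie near the 14.9% of all genes. Tgfbi, a matrix protein induced by TGF-beta, fell by 0.47 in both genotypes (0.47 with 7 pairs), and Inhba, the activin subunit, rose by 0.31 and 0.40 (0.23). Grem1, a secreted BMP antagonist, fell from a mean of 164 to 108 FPKM in wild type (-0.62) and was at 0.127 and 0.128 FPKM in Bmal1-/- cells. The neutrophil chemokine gene Cxcl5 fell by 0.60 in wild type and 0.31 in Bmal1-/- cells (0.23 with 7 pairs), within a list of 18 inflammation genes of which 4 rose and 9 fell in wild type and 2 rose and 6 fell in Bmal1-/- cells (1 and 4 with 7 pairs).

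Heat shock genes and p53 targets are given against the same shares of all genes, 7.9% higher and 13.3% lower in wild type and 14.9% and 21.6% in Bmal1-/- cells. Of 15 heat shock genes, 6 rose and 0 fell in wild type, while 0 rose and 7 fell in Bmal1-/- cells, or 1 with 7 pairs, and the genotype difference passed in the negative direction for 8 of 15 (5 with 7 pairs), against 9.53% of all genes (3.03%). Hsph1, a co-chaperone of HSP70, rose by 0.39 in wild type and had a change of 0.11 in Bmal1-/- cells that did not pass. Of 15 p53 targets, 3 rose and 1 fell in wild type, and 0 rose and 9 fell in Bmal1-/- cells, or 3 (20%) with 7 pairs, when 7.26% of all genes fell. Bbc3, a pro-apoptotic p53 target, was at a mean of 2.44 and 2.28 FPKM on the 2 wild-type days, and fell from 19.2 to 14.3 FPKM in Bmal1-/- cells (-0.41, or -0.30 with 7 pairs). Txnip, an inhibitor of glucose uptake that responds to glucose, rose by 0.46 in wild type and 0.32 in Bmal1-/- cells (0.42 with 7 pairs).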
